A study of Mus musculus with 12 samples.

Results

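The genes described here encode the ligands, receptors, Smad proteins and Id targets of the TGF-beta, BMP and Nodal pathways. They were chosen by gene symbol alone: the numbered Bmp and Gdf genes, the Bmpr and Acvr receptors, Tgfb1 to Tgfb3, Tgfbr1 to Tgfbr3, the Inhb subunits, the Smad genes, Id1 to Id4, Nodal, Lefty1 and Lefty2. This gave 53 of the 22180 genes measured with 1 gene symbol per probe set: 11 genes named Bmp, 8 named Gdf, 3 TGF-beta ligands, 4 activin and inhibin subunits, Nodal and both Lefty genes, 12 receptors, 8 Smads and 4 Id genes. All 53 symbols matched the RefSeq gene table.

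RNA levels came from 12 Affymetrix mouse arrays, 3 in each of 4 groups that the series orders by stage. Leukemia cells came from the spleen of a NOTCH1 leukemia mouse model. GFP+ colonies are labelled partially reprogrammed and GFP- colonies reprogrammed; both were derived from the leukemia cells, as were the established induced pluripotent stem (iPS) cells. All groups carry the genotype R26rtTA;Col1a12lox-4F2A, an rtTA transactivator at Rosa26 and, at Col1a1, a doxycycline-inducible construct (4F2A) that encodes Oct4, Sox2, Klf4 and c-Myc. The leukemia carries it as well, so no group lacks it. Doxycycline treatment is not given in the labels. What GFP marks and the age of the mice are not given in the labels. Every leukemia title carries the same leukemia number, and replicates are called biological with no separate animals or cultures named. The p-values therefore measure the spread between these arrays, which may be technical. The colonies were picked for RNA, and the iPS cells were grown in mouse embryonic stem cell medium.

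TGF-beta family ligands bind pairs of type I and type II receptor kinases. TGF-beta, activin and Nodal signal through Smad2 and Smad3, BMPs through Smad1, Smad5 and Smad9, and both branches use Smad4; Smad6 and Smad7 inhibit them. In mouse embryonic stem cells BMP signalling sustains self-renewal together with LIF through the Id genes, and Nodal with its co-receptor Tdgf1 and its antagonists Lefty1 and Lefty2 is a hallmark of the early embryo. TGF-beta holds back proliferation of many epithelial and lymphoid cells and slows reprogramming of fibroblasts.

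T lineage and pluripotency markers followed the labels for leukemia and iPS cells, while the colonies varied. Fibroblast and mesenchymal markers were highest on the iPS arrays, with the values given beside Inhba. The mean of 9 T lineage markers was 10.59 to 10.63 on the leukemia arrays, 5.78 to 6.71 on the GFP-positive, 5.44 to 6.21 on the GFP-negative and 5.64 to 6.09 on the iPS arrays. Values throughout are log2 levels as deposited, and array medians lay between 5.76 and 5.82. The mean of 9 pluripotency markers was 5.16 to 5.55 in leukemia and 9.30 to 9.34 in iPS cells, with 7.26 to 9.34 on the GFP-positive and 6.40 to 9.49 on the GFP-negative colony arrays. GFP-negative replicate 1 (6.40) and GFP-positive replicate 3 (7.26) were the lowest colony arrays on this list. GFP-positive replicate 3 was also the highest colony array for the 8 pan-haematopoietic markers (8.36) and the 8 macrophage and granulocyte markers (7.95). Macrophage and granulocyte markers averaged 8.26 to 8.33 on the leukemia arrays, which came from spleen. Counts of called genes are given with and without these 2 arrays, and the calls gained or lost are named. The 2 arrays stand apart by marker levels in these same data, and the pluripotency list includes Tdgf1, the Nodal co-receptor. Leaving them out favours calls of genes that follow that list, so calls gained this way are not independent evidence.

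Of the 53 genes, 23 differed in at least 1 of 6 group comparisons (43.4%, against 37% of all genes) and 30 in none, where a call is an adjusted p under 0.05 (Benjamini-Hochberg, over all genes) in a limma fit of the 12 arrays. Of these 30, 18 were called in at least 1 comparison under 1 or more of 20 alternative settings, so below "not called" refers to the fit of all 12 arrays. GFP-positive colonies had 8 genes higher and 5 lower than leukemia (24.5% of the 53, against 21.9% of all genes). GFP-negative colonies had 5 higher and 5 lower than leukemia (18.9%, against 21% of all genes). In iPS cells 13 genes were higher and 4 lower than in leukemia (32.1%, against 24.3% of all genes). The median difference over the 53 genes was 0.12, 0.07 and 0.21 in these comparisons, beside -0.04, -0.01 and -0.03 over all genes. The share of genes called in either direction was near the background in the colony groups and somewhat above it in iPS cells. By direction, 24.5% of the 53 genes were higher in iPS cells than in leukemia, where 12.4% of all genes were, and 7.55% were lower, where 11.9% of all genes were. The 3 comparisons share the leukemia arrays. Without both of the colony arrays named above, 17, 16 and 24 of the 53 genes were called in these comparisons, where 32.6%, 32.9% and 36.4% of all genes were. Without GFP-negative replicate 1 alone, 16, 14 and 19 were called, where 29.4%, 27.2% and 31% of all genes were. Calls gained without both arrays and not given with the genes below were Smad1 in GFP-negative colonies (-0.43, adjusted p = 0.0269) and Acvrl1, Id4 and Smad6 in iPS cells (0.46, 0.42 and 0.46, with adjusted p = 0.00431, 0.0112 and 0.0151). In fits of the 2 groups alone, 14, 7 and 33 were called, where 22.7%, 14.9% and 47.5% of all genes were. Below, a difference is the first-named group minus the second, ± standard error of the fit, with n = 3 arrays per group. In these bulk samples, fewer cells of a type and less RNA per cell cannot be told apart.

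**Figure D1:**
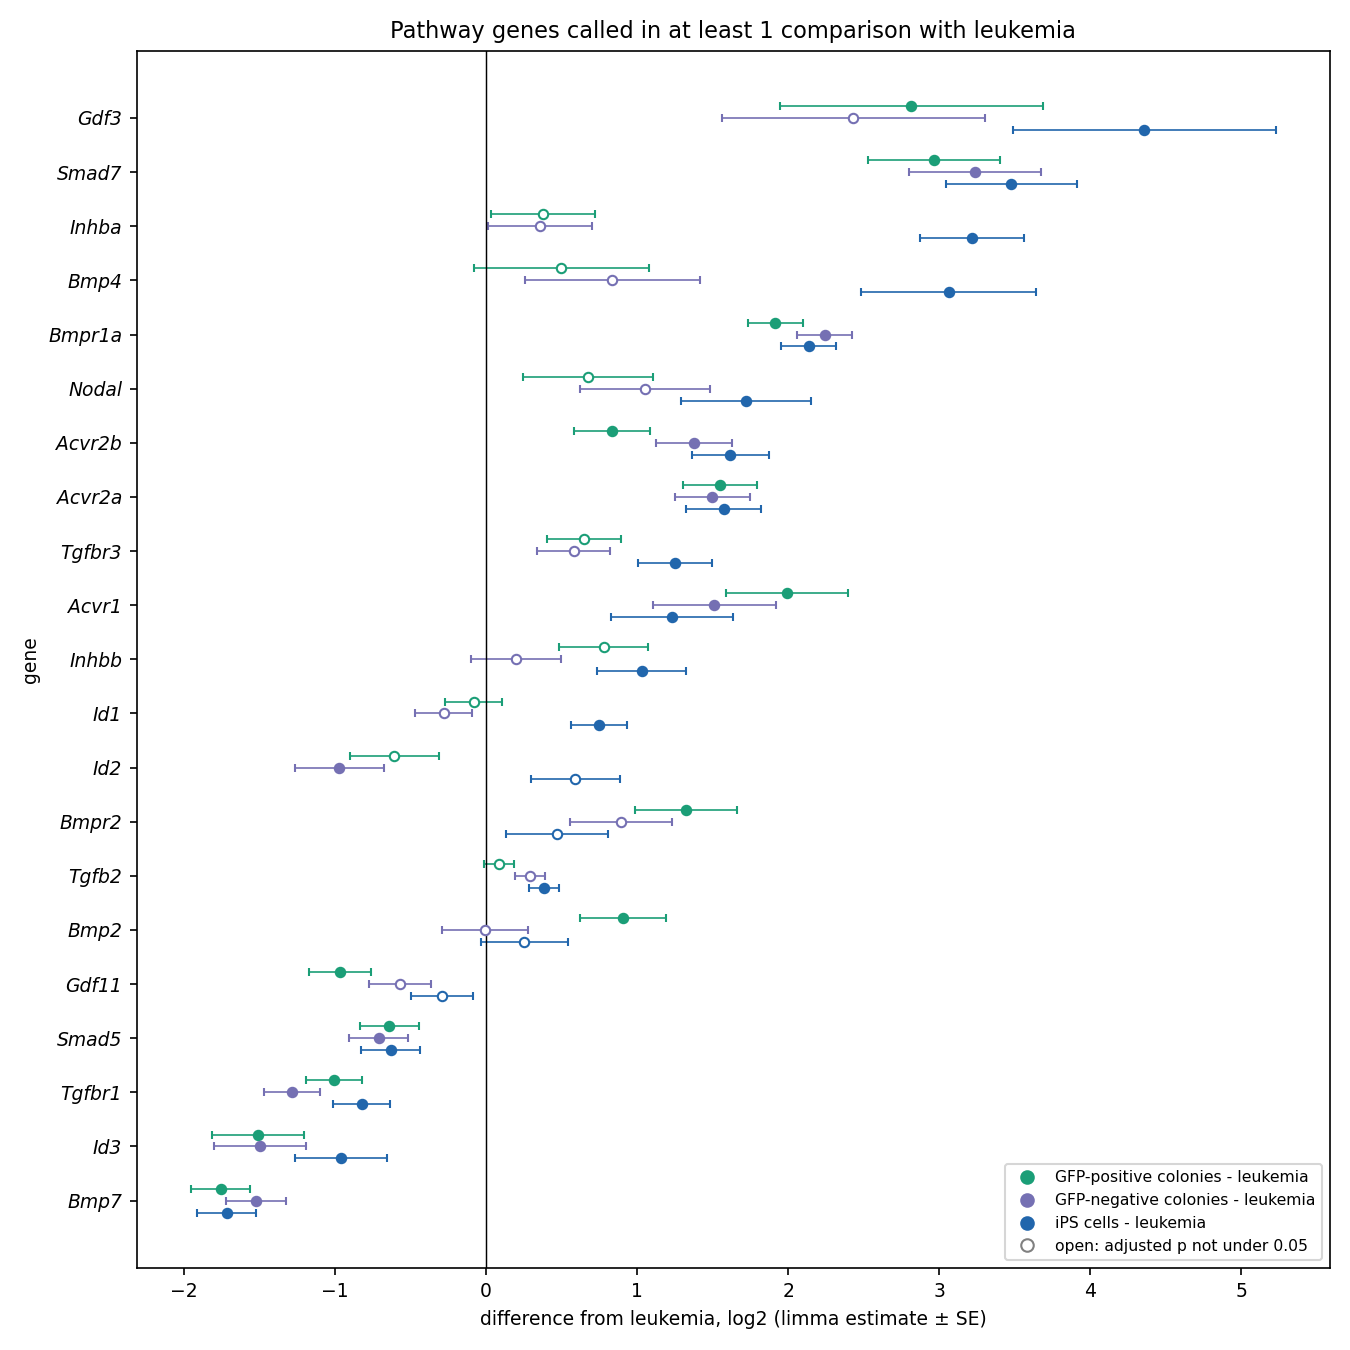
Difference of each colony group and of iPS cells from leukemia (log2, horizontal axis; limma estimate with standard error) for the genes called in at least 1 of these comparisons. Filled points passed an adjusted p of 0.05. Bmpr1a, Acvr2a and Smad7 lay to the right in all 3 groups and Bmp7, Id3 and Tgfbr1 to the left; for Inhba and Bmp4 the iPS points were filled (3.22 and 3.06) and the colony points open.

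Among the activin and inhibin subunits, Inhba was higher in iPS cells than in every other group. Inhba encodes the beta A subunit that forms activin A and inhibin A. It measured 4.99, 5.18 and 4.70 on the leukemia arrays, 5.65, 4.83 and 5.53 on the GFP-positive arrays, 6.08, 5.16 and 4.71 on the GFP-negative arrays and 8.45, 7.74 and 8.34 on the iPS arrays. No iPS array overlapped any other array, and the leukemia and colony arrays overlapped one another. The iPS level was 9.32-fold that of leukemia (3.22 ± 0.34, adjusted p = 7.38e-05, limma), 7.16-fold that of GFP-positive colonies (2.84 ± 0.34, adjusted p = 0.00203) and 7.27-fold that of GFP-negative colonies (2.86 ± 0.34, adjusted p = 0.00228). These 3 calls held whichever array was left out, with the highest adjusted p at 0.0428 in a fit of the iPS and GFP-negative arrays alone.

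Markers of fibroblasts and mesenchyme were, like Inhba, highest in iPS cells. Unlike Inhba, their mean was higher on every colony array than on every leukemia array. Of 8 such markers, 6 were higher in iPS cells than in GFP-negative colonies and 5 than in GFP-positive colonies. Their mean was 8.25 to 8.36 on the iPS arrays, 7.02 to 7.30 on the GFP-negative arrays, 7.16 to 7.55 on the GFP-positive ones and 6.49 to 6.55 in leukemia. Their part in the Inhba result was not tested.

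Inhbb, the beta B subunit, measured 5.50, 5.99 and 5.99 on the leukemia arrays, 6.24, 6.25 and 7.32 on the GFP-positive arrays, 6.43, 5.83 and 5.81 on the GFP-negative arrays and 6.92, 7.05 and 6.60 on the iPS arrays. All iPS arrays lay above all leukemia arrays, and the difference was 1.03 ± 0.30 (adjusted p = 0.0278, limma). That call was lost without iPS replicate 1 or 2 or any leukemia array (adjusted p from 0.0544 to 0.108). Inhbc and Inhbe, subunits made mainly by the liver, were not called in any comparison and stayed between 4.65 and 5.99 on all arrays.

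Nodal was higher in iPS cells than in leukemia, and Gdf3 in iPS cells and GFP-positive colonies. Nodal measured 6.37, 6.21 and 6.01 on the leukemia arrays, 7.00, 7.41 and 6.20 on the GFP-positive arrays, 6.15, 7.66 and 7.94 on the GFP-negative arrays and 8.23, 7.82 and 7.71 on the iPS arrays. GFP-positive replicate 3 and GFP-negative replicate 1 were within the leukemia range, and the other 4 colony arrays were above it. In iPS cells Nodal rose 3.30-fold over leukemia (1.72 ± 0.43, adjusted p = 0.014, limma). That call was lost without iPS replicate 1 (adjusted p = 0.0583) or leukemia replicate 3 (adjusted p = 0.0537). GFP-negative colonies differed from leukemia by 1.05 ± 0.43, which was not called (adjusted p = 0.115), but were higher by 1.60 without GFP-negative replicate 1 (adjusted p = 0.00319) and by 1.38 with array weights (adjusted p = 0.00208). GFP-positive colonies differed by 0.67 ± 0.43 (adjusted p = 0.317), and by 1.01 without both colony arrays that stand apart, which was called (adjusted p = 0.00249). Against GFP-positive colonies, Nodal was called higher in iPS cells without GFP-negative replicate 1 (1.05, adjusted p = 0.0212) and without both (0.71, adjusted p = 0.0272).

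Gdf3 encodes a Nodal-related ligand of pluripotent cells. It measured 5.06, 4.89 and 4.82 on the leukemia arrays, 6.92, 8.54 and 7.75 on the GFP-positive arrays, 4.74, 8.36 and 8.96 on the GFP-negative arrays and 9.23, 9.29 and 9.32 on the iPS arrays. GFP-negative replicate 1 lay just below the leukemia arrays, and every other colony array lay above leukemia and below iPS cells. Gdf3 had the largest difference of the 53 genes, 20.5-fold higher in iPS cells than in leukemia (4.36 ± 0.87, adjusted p = 0.00416, limma). It was higher in GFP-positive colonies than in leukemia by 2.82 ± 0.87 (adjusted p = 0.0417). That call was lost without any GFP-positive, iPS or leukemia array (adjusted p from 0.0524 to 0.118). GFP-negative colonies differed from leukemia by 2.43 ± 0.87, which was not called (adjusted p = 0.0741). Without GFP-negative replicate 1 the difference was 3.74 and was called (adjusted p = 5.18e-05), as it was with array weights (3.21, adjusted p = 0.00018). Against GFP-positive colonies, Gdf3 was called higher in iPS cells without GFP-negative replicate 1 (1.54, adjusted p = 0.00909) and without both colony arrays that stand apart (1.55, adjusted p = 0.0171).

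Lefty1 and Lefty2, secreted inhibitors of Nodal and themselves Nodal targets, were not called in any comparison. Lefty2 measured 6.42, 6.56 and 6.56 on the leukemia arrays, 7.25, 8.69 and 6.06 on the GFP-positive arrays, 6.49, 7.05 and 8.20 on the GFP-negative arrays and 7.61, 7.44 and 7.44 on the iPS arrays. The highest Lefty2 levels were those of GFP-positive replicate 2 and GFP-negative replicate 3, above all iPS arrays. Lefty1 measured 6.68, 6.71 and 6.52 on the leukemia arrays, 6.93, 7.48 and 6.46 on the GFP-positive arrays, 6.68, 7.37 and 7.48 on the GFP-negative arrays and 7.33, 7.07 and 7.06 on the iPS arrays. The iPS arrays lay above the leukemia arrays for both genes, by 0.52 for Lefty1 and 0.99 for Lefty2. In a fit of these 6 arrays alone both passed the threshold (adjusted p = 0.00243 for Lefty1 and 1.72e-05 for Lefty2, limma), as both did with array weights (adjusted p = 0.00391 and 0.00453). Without both colony arrays that stand apart, Lefty1 was called higher than leukemia in all 3 other groups (adjusted p from 0.00436 to 0.0236) and Lefty2 in GFP-positive colonies (1.46, adjusted p = 0.0174). The Lefty genes are close paralogs, and whether their probes cross-hybridise was not examined.

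**Figure D2:**
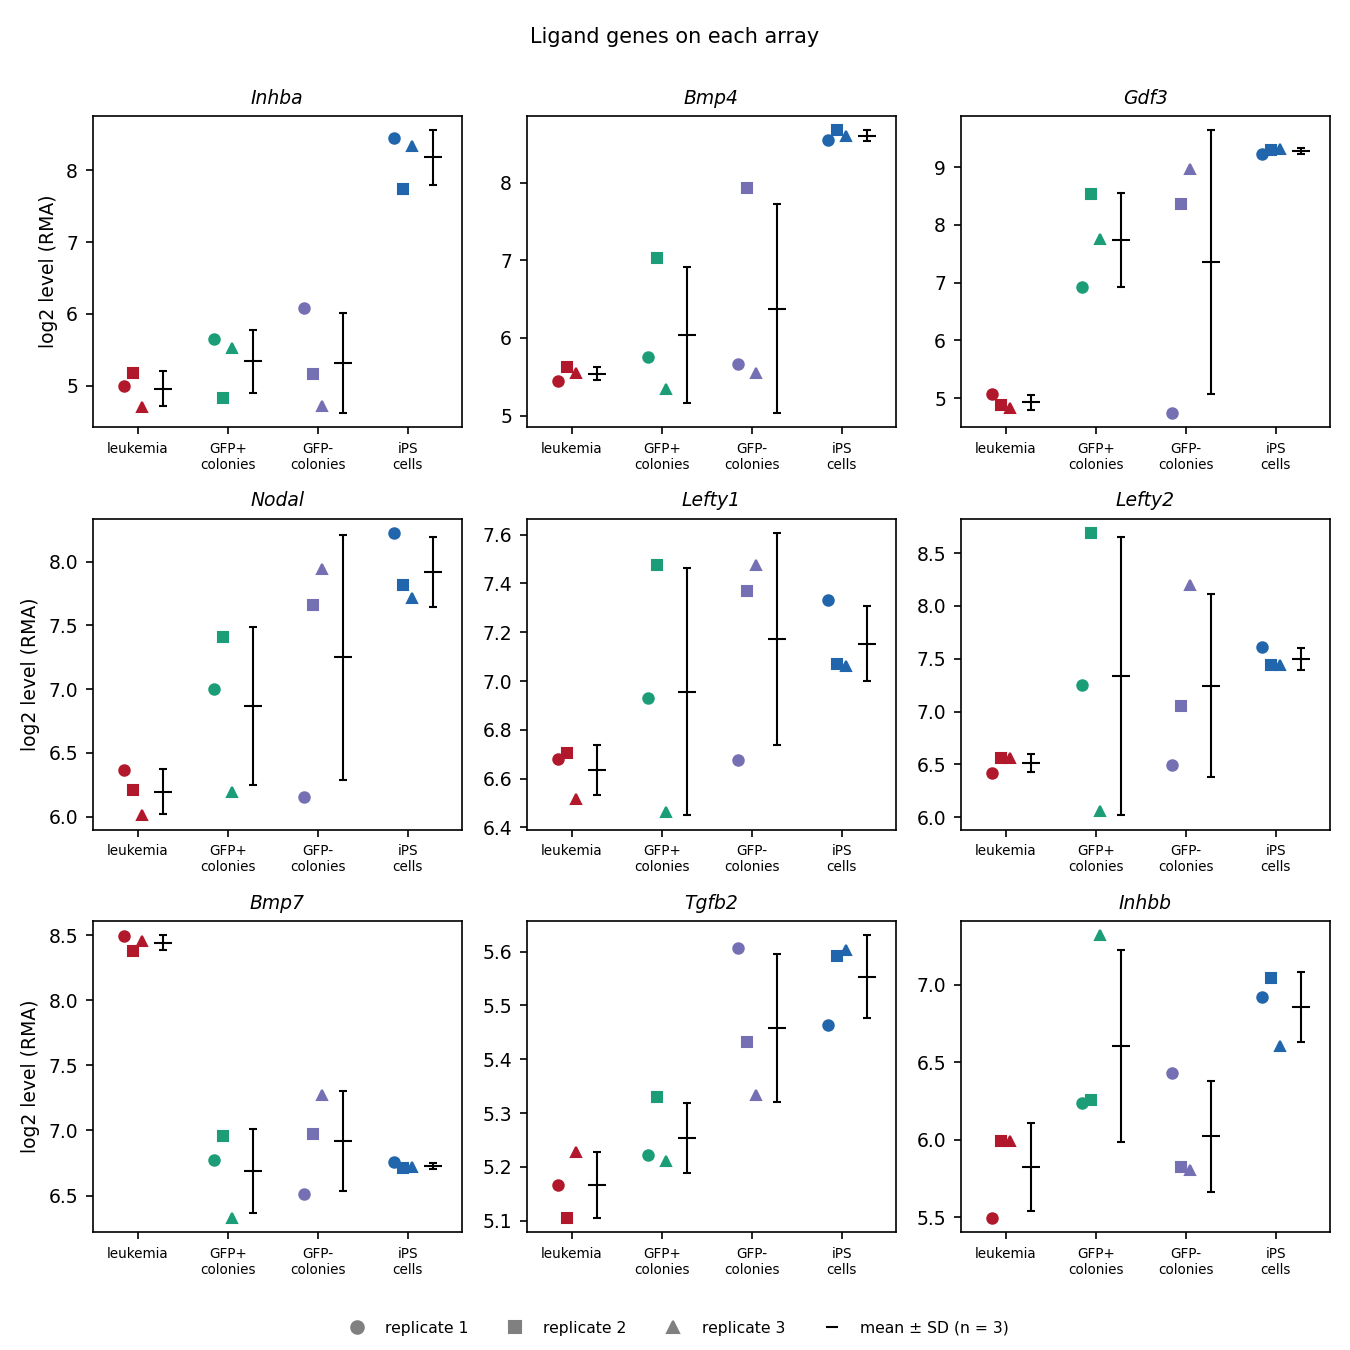
Log2 level (vertical axis, scale differs between panels) of 9 ligand genes on each array by stage. Symbols give the replicate and bars the mean ± SD of 3 arrays. The iPS arrays of Inhba (7.74 to 8.45) and Bmp4 (8.54 to 8.67) lay above all others, while Nodal, Lefty2 and Gdf3 spread widely among the colonies.

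Of the genes named Bmp, Bmp4 was higher and Bmp7 lower in iPS cells than in leukemia. Bmp4, a BMP that sustains mouse embryonic stem cells together with LIF, measured 5.45, 5.62 and 5.55 on the leukemia arrays, 5.75, 7.03 and 5.34 on the GFP-positive arrays, 5.66, 7.92 and 5.54 on the GFP-negative arrays and 8.54, 8.67 and 8.60 on the iPS arrays. All iPS arrays were above every other array, and 1 array of each colony group lay between the rest of its group and iPS cells. The iPS level was 8.37-fold that of leukemia (3.06 ± 0.58, adjusted p = 0.00301, limma) and 5.92-fold that of GFP-positive colonies (2.56 ± 0.58, adjusted p = 0.0233). The call against GFP-positive colonies was lost without any iPS array or GFP-positive replicate 1 or 3 (adjusted p from 0.0734 to 0.0827). Against GFP-negative colonies the difference was 2.23 ± 0.58 and not called (adjusted p = 0.0611), and over the alternatives it ran from 1.38 to 3.002. It was called without GFP-negative replicate 2 (3.002, adjusted p = 0.00594), without GFP-positive replicate 2 (adjusted p = 0.0433) and with a filter on low values (adjusted p = 0.0495). The fibroblast markers given beside Inhba were highest in iPS cells here too, and their part was not tested.

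Bmp7 measured 8.49, 8.38 and 8.45 on the leukemia arrays, 6.77, 6.96 and 6.33 on the GFP-positive arrays, 6.51, 6.97 and 7.28 on the GFP-negative arrays and 6.76, 6.71 and 6.72 on the iPS arrays. The leukemia arrays stood above all others, and colonies and iPS cells overlapped. Bmp7 fell by 1.76 ± 0.20 in GFP-positive colonies (adjusted p = 0.000117, limma), by 1.52 ± 0.20 in GFP-negative colonies (adjusted p = 0.000308) and by 1.72 ± 0.20 in iPS cells (adjusted p = 0.000113). T lineage markers fell with it, with all 9 lower in each of these comparisons, and their part in the result was not tested.

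Bmp2 was higher in GFP-positive colonies than in leukemia, at 5.74, 4.92 and 6.13 in the colonies against 4.48, 4.74 and 4.85 in leukemia (0.91 ± 0.29, adjusted p = 0.0447, limma). The groups did not overlap, yet the call was lost without 9 of the 12 arrays in turn (adjusted p from 0.0506 to 0.145): all except GFP-positive replicate 2 and GFP-negative replicates 1 and 2. It was also lost in a fit of the 2 groups alone (adjusted p = 0.0812) and without both colony arrays that stand apart (adjusted p = 0.0511). Bmp8b measured 8.55, 6.61 and 6.75 in GFP-positive and 8.45, 7.63 and 5.94 in GFP-negative colonies, against 5.73, 5.34 and 5.65 in leukemia. It was not called in any comparison. Without GFP-negative replicate 1 its difference between GFP-positive colonies and leukemia, 1.73, was called (adjusted p = 0.0285), as was 2.01 without both colony arrays that stand apart (adjusted p = 0.0181). Between GFP-negative colonies and leukemia it was called in 5 of 20 alternatives, among them without GFP-negative replicate 3 (2.46, adjusted p = 0.00636). Between iPS cells and leukemia it was called in a fit of these 2 groups alone (0.71, adjusted p = 0.000597). Bmp1 is a metalloprotease that processes procollagen rather than a ligand. It measured 9.14, 8.61 and 8.38 in GFP-positive colonies, above leukemia at 6.34, 6.59 and 6.78, with a difference of 2.14 ± 0.77 that was not called (adjusted p = 0.0736). It was called in 5 of 20 alternatives: a fit of the 2 groups alone (adjusted p = 0.00107), array weights (adjusted p = 0.00139), without GFP-negative replicate 1 (adjusted p = 0.0063) or 3 (adjusted p = 0.00274), and without both colony arrays that stand apart (2.30, adjusted p = 0.00677). The iPS arrays of Bmp1 (7.77 to 7.88) also lay above leukemia. That difference was called in 3 of 20 alternatives, among them a fit of these 2 groups alone (1.27, adjusted p = 2.06e-05). GFP-negative colonies spread from 5.88 to 10.04 for Bmp1. They were called higher than leukemia without GFP-negative replicate 3 (2.58, adjusted p = 0.00217) and with array weights (1.37, adjusted p = 0.0272). The other genes named Bmp, namely Bmp3, Bmp5, Bmp6, Bmp8a, Bmp10 and the oocyte factor Bmp15, were not called in any comparison. Of these, Bmp5, Bmp10 and Bmp15 lay below the array median on all 12 arrays.

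Among the other genes named Gdf, Gdf11, a ligand of axial patterning, was lower in GFP-positive colonies than leukemia. It measured 6.79, 6.91 and 6.30 in these colonies against 7.60, 7.58 and 7.72 in leukemia (-0.97 ± 0.21, adjusted p = 0.00673, limma), and this call held whichever array was left out. In iPS cells Gdf11 was at 7.38, 7.18 and 7.48, and GFP-negative arrays ran from 6.68 to 7.45. All of these lay below every leukemia array too, but neither difference from leukemia was called over 12 arrays. The GFP-negative difference was called without GFP-negative replicate 2 (-0.76, adjusted p = 0.0254) or GFP-positive replicate 3 (-0.57, adjusted p = 0.0453). The iPS difference was called in a fit of the 2 groups alone (-0.29, adjusted p = 0.0363) and with array weights (-0.29, adjusted p = 0.046). Against GFP-positive colonies, Gdf11 was called higher in iPS cells in 6 of 20 alternatives, among them without GFP-negative replicate 1 (0.68, adjusted p = 0.0186). Gdf2, a ligand of endothelial receptors also known as a BMP, was higher in iPS cells than in GFP-positive colonies by 0.56 ± 0.15 (adjusted p = 0.0454), at 6.20, 5.88 and 5.66 in iPS cells against 5.45, 5.16 and 5.45 in GFP-positive colonies. That call was lost without 10 of the 12 arrays in turn (adjusted p from 0.0558 to 0.158), all except GFP-negative replicates 1 and 3, in a fit of the 2 groups alone (adjusted p = 0.0771) and with cyclic loess (adjusted p = 0.0511). The leukemia (5.68 to 5.86) and GFP-negative arrays (5.52 to 5.85) of Gdf2 overlapped the iPS arrays, and the GFP-positive arrays lay below all others. Gdf5, Gdf6, Gdf7, Gdf9 and Gdf10 were not called in any comparison.

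Of the 3 TGF-beta ligands, Tgfb2 was called in 1 comparison and Tgfb1 and Tgfb3 in none of the 6, and both of these varied widely among GFP-negative colonies. Tgfb1, the ligand of immune cells, measured 8.88, 9.09 and 9.13 on the leukemia arrays, 8.00, 8.03 and 8.29 on the GFP-positive arrays, 9.03, 7.57 and 5.72 on the GFP-negative arrays and 7.95, 8.01 and 8.05 on the iPS arrays. The iPS and GFP-positive arrays lay below leukemia and the GFP-negative arrays spanned both. Its difference between iPS cells and leukemia, -1.03 ± 0.60, was not called over 12 arrays but was called in a fit of these 6 arrays alone (adjusted p = 1.76e-05, limma), with array weights (adjusted p = 0.00223), without GFP-negative replicate 3 (adjusted p = 0.0268) and without both colony arrays that stand apart (adjusted p = 0.0464). Between GFP-negative colonies and leukemia it differed by -1.59 ± 0.60 (adjusted p = 0.0891), and by -2.39 without GFP-negative replicate 1, which was called (adjusted p = 0.00151). The GFP-positive difference from leukemia was called in 3 of 20 alternatives. They were a fit of the 2 groups alone (-0.92, adjusted p = 0.00373), array weights (-0.97, adjusted p = 0.0423) and leaving out GFP-negative replicate 3 (-0.92, adjusted p = 0.0457). Tgfb3 measured 6.24, 6.09 and 6.08 on the leukemia arrays, 6.03, 6.17 and 6.60 on the GFP-positive arrays, 8.35, 6.24 and 5.37 on the GFP-negative arrays and 6.70, 6.89 and 6.93 on the iPS arrays. GFP-negative replicate 1 was the highest and replicate 3 the lowest of all 12 arrays. Its difference of 0.70 between iPS cells and leukemia was called in a fit of these 6 arrays alone (adjusted p = 0.000231), with array weights (adjusted p = 0.011), without GFP-negative replicate 1 (adjusted p = 0.0313) and without both colony arrays that stand apart (adjusted p = 0.0156). Tgfb2 was higher in iPS cells, at 5.46, 5.59 and 5.60, than in leukemia, at 5.17, 5.11 and 5.23 (0.39 ± 0.10, adjusted p = 0.0162). Its 12 values all lay below the array median, and the call was lost without iPS replicate 2 or 3 or leukemia replicate 1 or 2 (adjusted p from 0.0512 to 0.0645). The GFP-negative arrays of Tgfb2 (5.33 to 5.61) also lay above every leukemia array and overlapped the iPS arrays. Their difference from leukemia was called with cyclic loess (0.32, adjusted p = 0.044, limma) and without GFP-negative replicate 3 (0.35, adjusted p = 0.0399). The GFP-positive arrays (5.21 to 5.33) overlapped leukemia.

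Several receptor genes differed from leukemia in all 3 other groups. Of 12 receptors, GFP-positive colonies had 5 higher and 1 lower than leukemia, GFP-negative colonies 4 and 1, and iPS cells 5 and 1. Among all genes 9.6%, 9.02% and 12.4% were higher and 12.3%, 12% and 11.9% lower in these comparisons. Bmpr1a, a type I BMP receptor, measured 4.98, 5.33 and 5.23 on the leukemia arrays, 7.02, 7.34 and 6.92 on the GFP-positive arrays, 7.83, 7.20 and 7.24 on the GFP-negative arrays and 7.46, 7.25 and 7.25 on the iPS arrays. Leukemia stood apart, and the other groups overlapped. Bmpr1a rose by 1.91 ± 0.18 in GFP-positive colonies (adjusted p = 3.8e-05, limma), 2.24 ± 0.18 in GFP-negative colonies (adjusted p = 1.14e-05) and 2.14 ± 0.18 in iPS cells (adjusted p = 1.47e-05). These were the smallest adjusted p-values of the 53 genes in each comparison. Against leukemia, epithelial markers rose as well, with 8, 7 and 5 of 8 higher in these groups. Their mean was 10.99 to 11.42 over the GFP-positive, 8.33 to 11.69 over the GFP-negative, 8.79 to 8.81 over the iPS and 5.51 to 5.66 over the leukemia arrays, and their part in the receptor results was not tested.

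Both activin type II receptors rose as well. Acvr2a measured 5.75, 6.02 and 5.28 on the leukemia arrays, 7.58, 7.27 and 6.84 on the GFP-positive arrays, 7.59, 6.81 and 7.14 on the GFP-negative arrays and 7.29, 7.22 and 7.26 on the iPS arrays. Its differences from leukemia were 1.55, 1.50 and 1.57, each ± 0.25 (adjusted p = 0.0012, 0.00147 and 0.000944, limma), and no leukemia array reached the other groups. Acvr2b measured 6.02, 5.84 and 5.69 on the leukemia arrays, 6.75, 7.02 and 6.28 on the GFP-positive arrays, 6.61, 7.53 and 7.53 on the GFP-negative arrays and 7.40, 7.47 and 7.53 on the iPS arrays. GFP-positive replicate 3 and GFP-negative replicate 1 were the lowest of their groups, and leukemia was below both. The differences were 0.83 ± 0.25 (adjusted p = 0.0382), 1.38 ± 0.25 (adjusted p = 0.00295) and 1.62 ± 0.25 (adjusted p = 0.000925). The first of these was lost without any iPS or leukemia array or GFP-positive replicate 1 or 2 (adjusted p from 0.0575 to 0.125).

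Acvr1, a type I receptor for BMPs and activins, measured 5.71, 5.55 and 5.53 on the leukemia arrays, 7.66, 7.39 and 7.72 on the GFP-positive arrays, 8.37, 6.49 and 6.47 on the GFP-negative arrays and 6.82, 6.75 and 6.92 on the iPS arrays. All arrays outside leukemia lay above it, GFP-negative replicate 1 the highest. It was higher than in leukemia by 1.99 ± 0.41 in GFP-positive colonies (adjusted p = 0.00529, limma), 1.51 ± 0.41 in GFP-negative colonies (adjusted p = 0.0227) and 1.23 ± 0.41 in iPS cells (adjusted p = 0.0494). The GFP-negative call was lost without any leukemia array (adjusted p from 0.0568 to 0.072) and in a fit of these 6 arrays alone (adjusted p = 0.114). The iPS call was lost without any iPS, leukemia or GFP-positive array (adjusted p from 0.0575 to 0.13), and with a trend and robust prior (adjusted p = 0.0508). Bmpr2, the BMP type II receptor, measured 11.33, 10.82 and 11.07 in GFP-positive colonies against 9.66, 9.71 and 9.87 in leukemia (1.33 ± 0.34, adjusted p = 0.0169). That call was lost without GFP-positive replicate 1 or leukemia replicate 1 or 2 (adjusted p from 0.0557 to 0.0635). The GFP-negative (9.90 to 11.59) and iPS arrays (10.07 to 10.36) also lay above every leukemia array. Neither difference was called over 12 arrays. The iPS difference was called in a fit of the iPS and leukemia arrays alone (0.47, adjusted p = 0.00418, limma) and with array weights (adjusted p = 0.0149). The GFP-negative difference was called without GFP-negative replicate 3 (1.26, adjusted p = 0.0119) and with array weights (adjusted p = 0.0214). Another probe set, which Bmpr2 shares with a second symbol, was not used.

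Tgfbr1, the type I receptor of TGF-beta, was the receptor that fell. It measured 7.09, 6.94 and 7.06 on the leukemia arrays, 5.93, 5.77 and 6.36 on the GFP-positive arrays, 5.37, 5.85 and 6.02 on the GFP-negative arrays and 6.23, 6.09 and 6.30 on the iPS arrays. No array outside leukemia reached the leukemia range. It fell by 1.01 ± 0.19 in GFP-positive colonies (adjusted p = 0.00297, limma), by 1.28 ± 0.19 in GFP-negative colonies (adjusted p = 0.000663) and by 0.82 ± 0.19 in iPS cells (adjusted p = 0.00811), whichever array was left out. Its partner Tgfbr2, the type II receptor, was not called. It measured 7.34, 7.49 and 7.56 on the leukemia arrays, 8.64, 8.00 and 9.92 on the GFP-positive arrays, 9.11, 7.10 and 5.92 on the GFP-negative arrays and 6.83, 6.79 and 7.01 on the iPS arrays. All GFP-positive arrays were above leukemia and iPS cells, and GFP-negative arrays lay on both sides. Without GFP-negative replicate 1, Tgfbr2 was called higher in GFP-positive colonies than in leukemia (1.39, adjusted p = 0.0335) and lower in iPS cells than in GFP-positive colonies (-1.98, adjusted p = 0.00986). Without both colony arrays that stand apart, it was called lower in GFP-negative colonies than in leukemia (-0.96, adjusted p = 0.0337). Every iPS array lay below every leukemia array for Tgfbr2. That difference was called in a fit of these 2 groups alone (-0.59, adjusted p = 0.000882). Tgfbr3, the co-receptor betaglycan, measured 5.58, 5.65 and 5.83 on the leukemia arrays, 6.88, 6.02 and 6.11 on the GFP-positive arrays, 6.40, 6.61 and 5.79 on the GFP-negative arrays and 6.92, 6.91 and 6.98 on the iPS arrays. It rose in iPS cells over leukemia by 1.25 ± 0.24 (adjusted p = 0.00362). Acvr1b, Acvr1c and the endothelial receptor Acvrl1 were not called in any comparison.

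**Figure D3:**
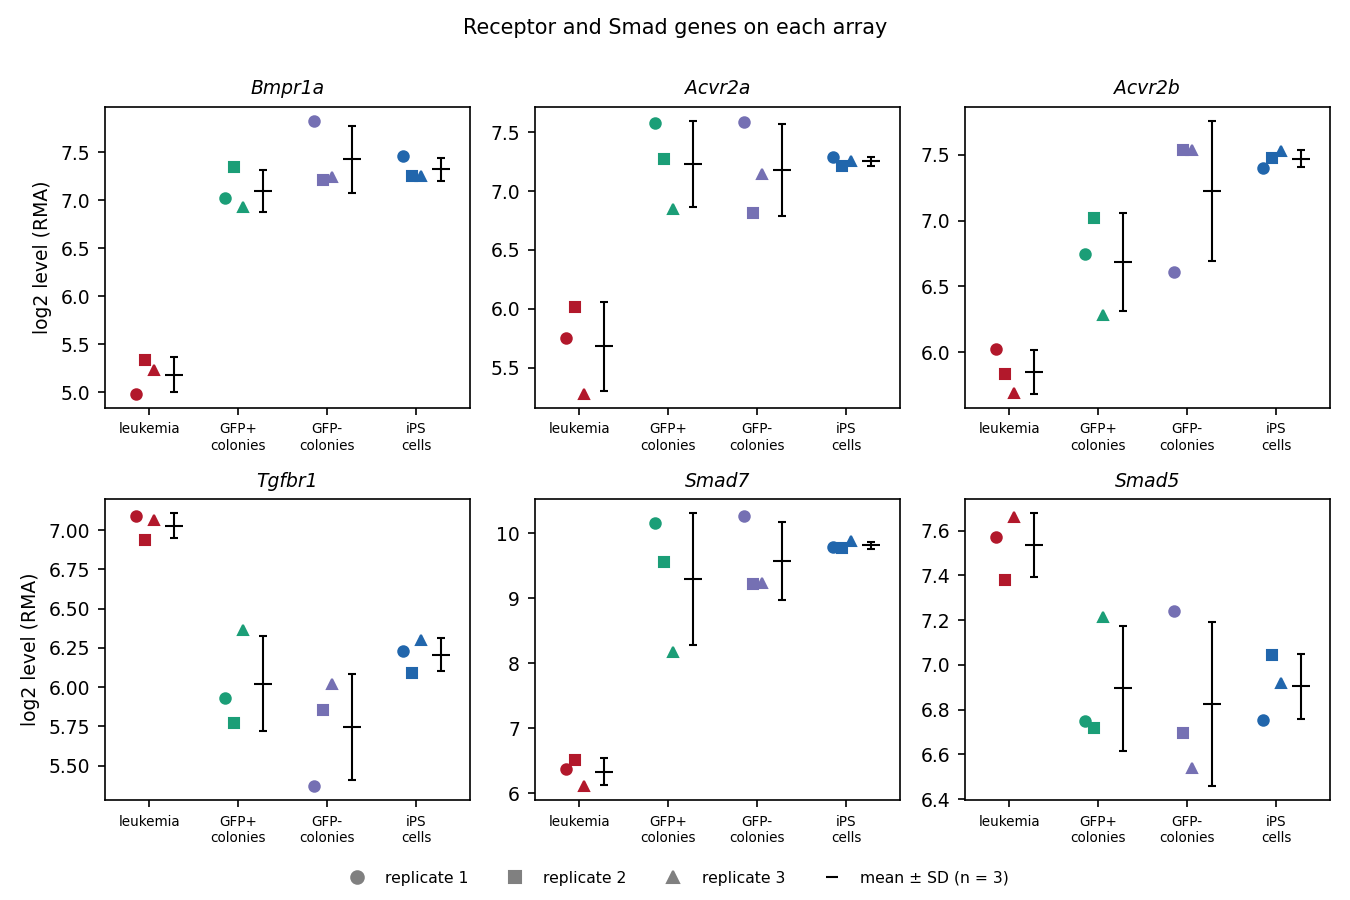
Log2 level (vertical axis, scale differs between panels) of 4 receptor and 2 Smad genes on each array by stage. Symbols give the replicate and bars the mean ± SD of 3 arrays. Leukemia arrays lay below all others for Bmpr1a, Acvr2a, Acvr2b and Smad7 and above all others for Tgfbr1 and Smad5.

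Among the Smads, the inhibitory Smad7 rose and Smad5 fell against leukemia in all 3 other groups. Smad7 blocks type I receptors and is itself induced by TGF-beta family signals. It measured 6.37, 6.52 and 6.11 on the leukemia arrays, 10.15, 9.56 and 8.18 on the GFP-positive arrays, 10.27, 9.22 and 9.23 on the GFP-negative arrays and 9.79, 9.77 and 9.88 on the iPS arrays. The lowest colony array, GFP-positive replicate 3, still lay above every leukemia array. Smad7 was 7.80-fold higher in GFP-positive colonies (2.96 ± 0.44, adjusted p = 0.000738, limma), 9.44-fold higher in GFP-negative colonies (3.24 ± 0.44, adjusted p = 0.000415) and 11.1-fold higher in iPS cells (3.48 ± 0.44, adjusted p = 0.000214). These calls held whichever array was left out.

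Smad5, a BMP Smad, measured 7.57, 7.38 and 7.66 on the leukemia arrays, 6.75, 6.72 and 7.21 on the GFP-positive arrays, 7.24, 6.69 and 6.54 on the GFP-negative arrays and 6.75, 7.04 and 6.92 on the iPS arrays. It fell by 0.64, 0.71 and 0.63 in these 3 groups, each ± 0.20 (adjusted p = 0.0392, 0.0255 and 0.0383, limma). In GFP-positive colonies this was lost without any iPS or leukemia array or GFP-positive replicate 1 or 2 (adjusted p from 0.0534 to 0.127), and with cyclic loess (adjusted p = 0.0595). In GFP-negative colonies it was lost without leukemia replicate 1 or 3 or GFP-negative replicate 2 or 3 (adjusted p from 0.0778 to 0.0931), and in a fit of these 2 groups alone (adjusted p = 0.0725). In iPS cells it was lost without any iPS or leukemia array (adjusted p from 0.0578 to 0.131). Smad3, the mediator of TGF-beta and activin signals, measured 7.70, 7.66 and 7.65 on the leukemia arrays, 7.46, 7.07 and 7.08 on the GFP-positive arrays, 7.99, 6.34 and 5.48 on the GFP-negative arrays and 6.48, 6.10 and 6.33 on the iPS arrays. The iPS arrays lay below leukemia, and GFP-negative replicate 1 above it. The iPS difference, -1.37 ± 0.47, was not called over 12 arrays (adjusted p = 0.0608) but was called in a fit of the iPS and leukemia arrays alone (adjusted p = 6.7e-06), with array weights (adjusted p = 3.72e-05), with a filter on low values (adjusted p = 0.045), without GFP-negative replicate 1 (adjusted p = 0.000605) or 3 (adjusted p = 0.0131) and without both colony arrays that stand apart (adjusted p = 0.000476). Without GFP-negative replicate 1, Smad3 was also called lower in GFP-negative colonies than in leukemia (-1.76, adjusted p = 0.000347). Smad1, Smad2, Smad4, Smad6 and Smad9 were not called in any comparison. Smad1 measured 7.39, 7.53 and 7.74 on the leukemia arrays, 7.53, 7.35 and 7.76 on the GFP-positive arrays, 7.26, 7.20 and 7.04 on the GFP-negative arrays and 7.48, 7.44 and 7.60 on the iPS arrays. Smad6, the other inhibitory Smad, measured 4.88, 4.83 and 4.98 on the leukemia arrays, 4.87, 5.06 and 5.70 on the GFP-positive arrays, 5.40, 5.42 and 5.03 on the GFP-negative arrays and 5.36, 5.24 and 5.47 on the iPS arrays, below the array median on all arrays.

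The Id genes, which encode inhibitors of DNA binding by basic helix-loop-helix factors and are direct BMP targets, did not all move alike. Between iPS cells and leukemia, Id1 was called higher and Id3 lower. Id2 was higher there by 0.59, called in 3 of 20 alternatives but not over all arrays. In both colony groups the means of Id1, Id2 and Id3 lay below leukemia, called for Id3 in both and for Id2 in GFP-negative colonies. The iPS means of these genes lay above both colony groups, called for Id1 and Id2. For Id3 they were 7.62 in iPS cells, 7.07 in GFP-positive and 7.09 in GFP-negative colonies. Id1 measured 7.66, 7.40 and 7.62 on the leukemia arrays, 7.33, 7.19 and 7.92 on the GFP-positive arrays, 7.28, 7.15 and 7.41 on the GFP-negative arrays and 8.11, 8.30 and 8.53 on the iPS arrays. All iPS arrays were above all others, which overlapped. Id1 was higher in iPS cells by 0.75 ± 0.19 than in leukemia (adjusted p = 0.0139, limma), 0.83 ± 0.19 than in GFP-positive colonies (adjusted p = 0.0232) and 1.03 ± 0.19 than in GFP-negative colonies (adjusted p = 0.0146). The first was lost without iPS replicate 3 (adjusted p = 0.063) or leukemia replicate 2 (adjusted p = 0.0603). The second was lost without any iPS array or GFP-positive replicate 1 (adjusted p from 0.0507 to 0.0942) and in a fit of the 2 groups alone (adjusted p = 0.0541), and the third without iPS replicate 2 (adjusted p = 0.0636) or 3 (adjusted p = 0.0745).

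Id2 measured 7.50, 7.64 and 7.48 on the leukemia arrays, 6.90, 7.28 and 6.63 on the GFP-positive arrays, 6.14, 7.40 and 6.16 on the GFP-negative arrays and 8.13, 8.11 and 8.15 on the iPS arrays. The iPS arrays were highest, leukemia next, and all colony arrays lay below leukemia. Id2 was higher in iPS cells than in GFP-positive colonies by 1.20 ± 0.29 (adjusted p = 0.0311, limma) and than in GFP-negative colonies by 1.56 ± 0.29 (adjusted p = 0.0171). GFP-negative colonies differed from leukemia by -0.97 ± 0.29 (adjusted p = 0.0394). The GFP-positive call was lost without any iPS or leukemia array or GFP-positive replicate 1 or 3 (adjusted p from 0.052 to 0.1). The GFP-negative call was lost without any iPS array (adjusted p from 0.07 to 0.0742), and in a fit of these 6 arrays alone (adjusted p = 0.115). The call against leukemia was lost without any of 9 arrays, all except GFP-positive replicates 2 and 3 and GFP-negative replicate 2 (adjusted p from 0.0544 to 0.117). It was lost too in a fit of the 2 groups alone (adjusted p = 0.129), with array weights (adjusted p = 0.111), with cyclic loess (adjusted p = 0.0544) and without both colony arrays that stand apart (adjusted p = 0.0692).

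Id3 measured 8.60, 8.64 and 8.50 on the leukemia arrays, 7.81, 6.94 and 6.47 on the GFP-positive arrays, 7.58, 6.99 and 6.68 on the GFP-negative arrays and 7.61, 7.57 and 7.69 on the iPS arrays. Leukemia stood above all other arrays. Id3 fell by 1.51 ± 0.30 in GFP-positive colonies (adjusted p = 0.00502, limma), by 1.49 ± 0.30 in GFP-negative colonies (adjusted p = 0.00536) and by 0.96 ± 0.30 in iPS cells (adjusted p = 0.042). The iPS call was lost without any iPS or leukemia array, GFP-positive replicate 2 or GFP-negative replicate 2 (adjusted p from 0.0522 to 0.113). Id3 is a target of pre-T cell receptor signalling in thymocytes. The T lineage markers fell in the same comparisons, as given beside Bmp7, and their part in the Id3 result was not tested. Id4 was not called in any comparison. It measured 5.73, 5.76 and 5.71 on the leukemia arrays, 6.10, 5.83 and 6.75 on the GFP-positive arrays, 5.97, 5.95 and 6.08 on the GFP-negative arrays and 6.20, 6.25 and 6.02 on the iPS arrays.

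**Figure D4:**
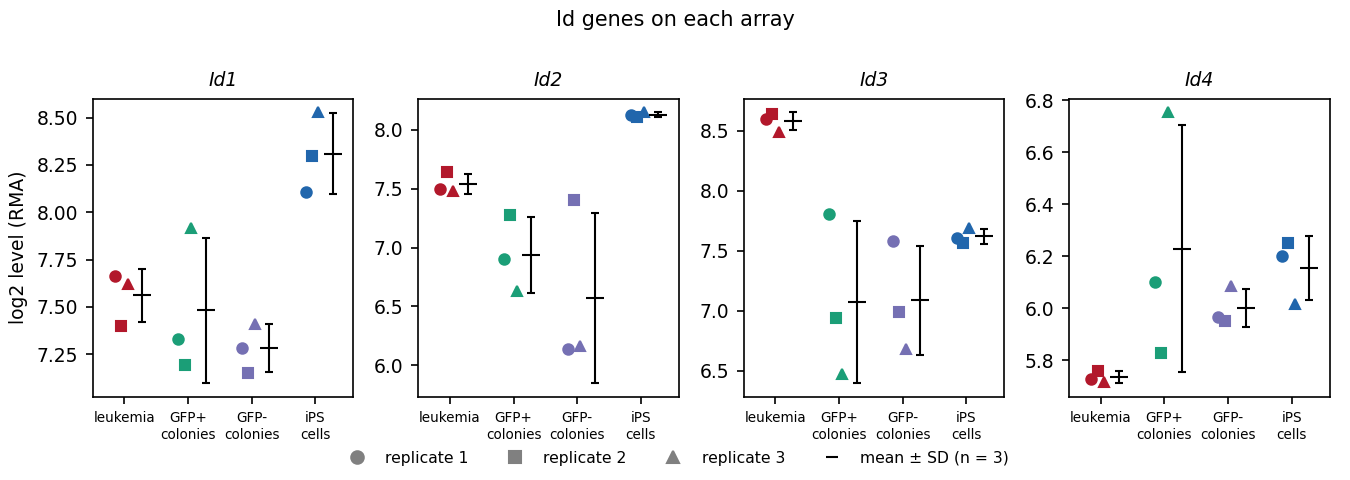
Log2 level (vertical axis, scale differs between panels) of Id1 to Id4 on each array by stage. Symbols give the replicate and bars the mean ± SD of 3 arrays. The iPS arrays were the highest for Id1 (8.11 to 8.53) and Id2 (8.11 to 8.15), and the leukemia arrays were the highest for Id3 (8.50 to 8.64).

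Promoter windows are shown for Id2, which was higher in iPS cells than in the colonies, for Id3, which was lower there than in leukemia, and for the ligand genes Bmp4 and Inhba, which rose in iPS cells. RefSeq windows (GRCm38.p6) run from 250 bases before to 50 after a transcript start and were found for 36 of the 53 genes. Capitals mark GGCGCC, a GC-rich element that BMP Smads bind, CAGACA, a Smad box, TATAAA and CCAAT, each searched on both strands. The windows are Id2 at chr12:25096043-25096342 (minus strand), Id3 at chr4:136143572-136143871 (plus strand), Bmp4 at chr14:46390620-46390919 (minus strand) and Inhba at chr13:16011601-16011900 (plus strand), each printed 5′ to 3′ on the strand of its gene. The Inhba gene starts at base 16004256 of chromosome 13, so its window surrounds a transcript start inside the gene.
Id2: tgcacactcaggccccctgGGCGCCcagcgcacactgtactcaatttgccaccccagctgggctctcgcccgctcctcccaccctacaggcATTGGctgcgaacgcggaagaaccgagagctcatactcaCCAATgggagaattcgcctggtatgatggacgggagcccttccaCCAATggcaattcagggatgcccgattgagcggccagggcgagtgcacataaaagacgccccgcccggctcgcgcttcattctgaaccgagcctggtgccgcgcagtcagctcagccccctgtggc
Id3: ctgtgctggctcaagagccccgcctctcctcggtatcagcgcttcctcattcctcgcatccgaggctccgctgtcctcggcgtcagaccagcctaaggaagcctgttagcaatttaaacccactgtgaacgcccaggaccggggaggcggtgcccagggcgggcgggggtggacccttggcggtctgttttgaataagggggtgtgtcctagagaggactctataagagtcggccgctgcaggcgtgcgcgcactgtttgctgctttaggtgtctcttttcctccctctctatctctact
Bmp4: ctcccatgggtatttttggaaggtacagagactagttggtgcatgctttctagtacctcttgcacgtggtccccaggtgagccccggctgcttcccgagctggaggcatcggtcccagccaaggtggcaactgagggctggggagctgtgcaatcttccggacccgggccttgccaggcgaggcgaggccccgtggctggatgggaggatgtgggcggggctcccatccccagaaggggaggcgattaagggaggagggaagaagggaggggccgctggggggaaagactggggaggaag
Inhba: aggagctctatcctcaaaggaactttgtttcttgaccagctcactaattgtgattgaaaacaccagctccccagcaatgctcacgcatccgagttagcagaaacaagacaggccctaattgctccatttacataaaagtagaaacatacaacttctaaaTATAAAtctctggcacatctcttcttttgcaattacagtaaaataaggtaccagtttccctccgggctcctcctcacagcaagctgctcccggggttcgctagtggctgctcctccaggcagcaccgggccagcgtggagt

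The Id2 window held 1 GGCGCC and 3 CCAAT matches, the Inhba window 1 TATAAA match, and the Id3 and Bmp4 windows none of the 4 motifs. GGCGCC was present in 10 of the 42 windows of the 36 pathway genes (23.8%) and in 11.9% of all 32851 windows. CAGACA was present in 14.3% and 21%, TATAAA in 14.3% and 13.6%, and CCAAT in 42.9% and 37.4%. These counts describe letters in the windows and were not tested.

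Established iPS cells were also set against each colony group. Against GFP-positive colonies, 6 were higher and 0 lower in iPS cells (11.3% of the 53, against 10.4% of all genes, 6.15% higher and 4.23% lower): Inhba, Bmp4, Id1, Id2, Gdf2 and Bmpr1b. Against GFP-negative colonies, 3 were higher and 0 lower (5.66%, against 4.25% of all genes, 2.94% higher and 1.32% lower): Inhba, Id1 and Id2. Without both colony arrays that stand apart, 17 and 8 were called, where 20.4% and 10% of all genes were. Without GFP-negative replicate 1 alone, 15 and 4 were called, where 21.7% and 4.86% were. Against GFP-positive colonies, Acvr1, Bmpr2, Smad3 and Tgfbr2 were then lower in iPS cells and Acvr2b, Gdf3, Gdf11, Nodal and Tgfb2 higher (adjusted p from 0.00174 to 0.0413). With both arrays out, the same genes except Tgfb2 were gained, together with Inhbe, which was lower, and Acvrl1, Inhbb and Tgfb3, which were higher (adjusted p from 0.00352 to 0.0364). Against GFP-negative colonies, Tgfb3 was gained without GFP-negative replicate 1 (1.03, adjusted p = 0.0396), and with both out also Acvr1b, Acvrl1, Id3 and Inhbb, all higher in iPS cells (adjusted p from 0.00649 to 0.0491). In fits of the 2 groups alone, 10 and 2 were called, where 12.7% and 0.857% were. An unadjusted p under 0.05 was found for 15 and 10 of the 53 genes in these comparisons (28.3% and 18.9%), against 27.2% and 19.7% of all genes. These shares were near those of all genes. Bmpr1b, another type I BMP receptor, measured 4.75, 4.78 and 5.13 in iPS cells against 4.36, 4.43 and 4.34 in GFP-positive colonies (0.51 ± 0.14, adjusted p = 0.0413, limma), below the array median on every array. That call was lost without any iPS array, GFP-positive replicate 1 or 3, GFP-negative replicate 2, or leukemia replicate 1 or 2 (adjusted p from 0.0539 to 0.147), with array weights (adjusted p = 0.0555), in a fit of the 2 groups alone (adjusted p = 0.0529) and without both colony arrays that stand apart (adjusted p = 0.0548). In a fit of the iPS and GFP-positive arrays alone, 5 of the 10 called genes were lower in iPS cells. They were Tgfbr2 (-1.98 ± 0.45, adjusted p = 0.0372), Smad3 (-0.90 ± 0.16, adjusted p = 0.0185), Bmp1 (-0.87 ± 0.20, adjusted p = 0.0386), Bmpr2 (-0.86 ± 0.16, adjusted p = 0.0218) and Acvr1 (-0.76 ± 0.13, adjusted p = 0.0161). Of 8 epithelial markers, 3 were lower in iPS cells in the same comparison, and their part was not tested.

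Between GFP-negative and GFP-positive colonies, limma called 0 of the 53 genes over all arrays, as it did 0% of all genes, and 4 had an unadjusted p under 0.05 (7.55%, against 6.37% of all genes). The smallest adjusted p was 0.731. Tgfbr2 differed by -1.48 ± 0.68 (adjusted p = 0.76). The count rested on GFP-negative replicate 1. Without it, 5 genes were called, where 4.59% of all genes were. Tgfbr2 (-2.35 ± 0.48, adjusted p = 0.0276), Smad3 (-1.30 ± 0.23, adjusted p = 0.0178), Acvr1 (-1.11 ± 0.13, adjusted p = 0.00313) and Bmpr2 (-0.91 ± 0.19, adjusted p = 0.029) were lower in GFP-negative colonies, and Acvr2b (0.85 ± 0.19, adjusted p = 0.0367) was higher. The same 5 genes were called when GFP-positive replicate 3 was left out as well, where 4.73% of all genes were, with Tgfbr2 at -1.81 ± 0.33 (adjusted p = 0.0153).

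The colony arrays differed among themselves more than the arrays of either end group. The median SD of the 53 genes was 0.116 on the leukemia arrays, 0.323 on the GFP-positive arrays, 0.340 on the GFP-negative arrays and 0.105 on the iPS arrays, beside 0.105, 0.217, 0.245 and 0.0998 over all genes. An SD over 1 was found for 9 of the 53 genes in GFP-negative colonies, where 6.53% of all genes had one, and for 3 in GFP-positive colonies, where 3.52% had one. On GFP-negative replicate 1, Bmp1 (10.04), Tgfb1 (9.03), Tgfb3 (8.35), Tgfbr2 (9.11) and Smad3 (7.99) were the highest of their group, and Gdf3 (4.74) and Nodal (6.15) the lowest. On GFP-negative replicate 3 the order was the opposite, with Bmp1 at 5.88, Tgfb1 at 5.72, Tgfb3 at 5.37, Tgfbr2 at 5.92, Smad3 at 5.48, Gdf3 at 8.96 and Nodal at 7.94. The epithelial markers averaged 11.69, 10.17 and 8.33 on GFP-negative replicates 1, 2 and 3 and the pluripotency markers 6.40, 9.18 and 9.49. On the GFP-positive arrays these lists averaged 11.42, 10.99 and 11.14, and 7.99, 9.34 and 7.26. Their part in the spread of the pathway genes was not tested. GFP-negative replicate 3, the lowest colony array for epithelial markers, was left out only on its own.

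**Figure D5:**
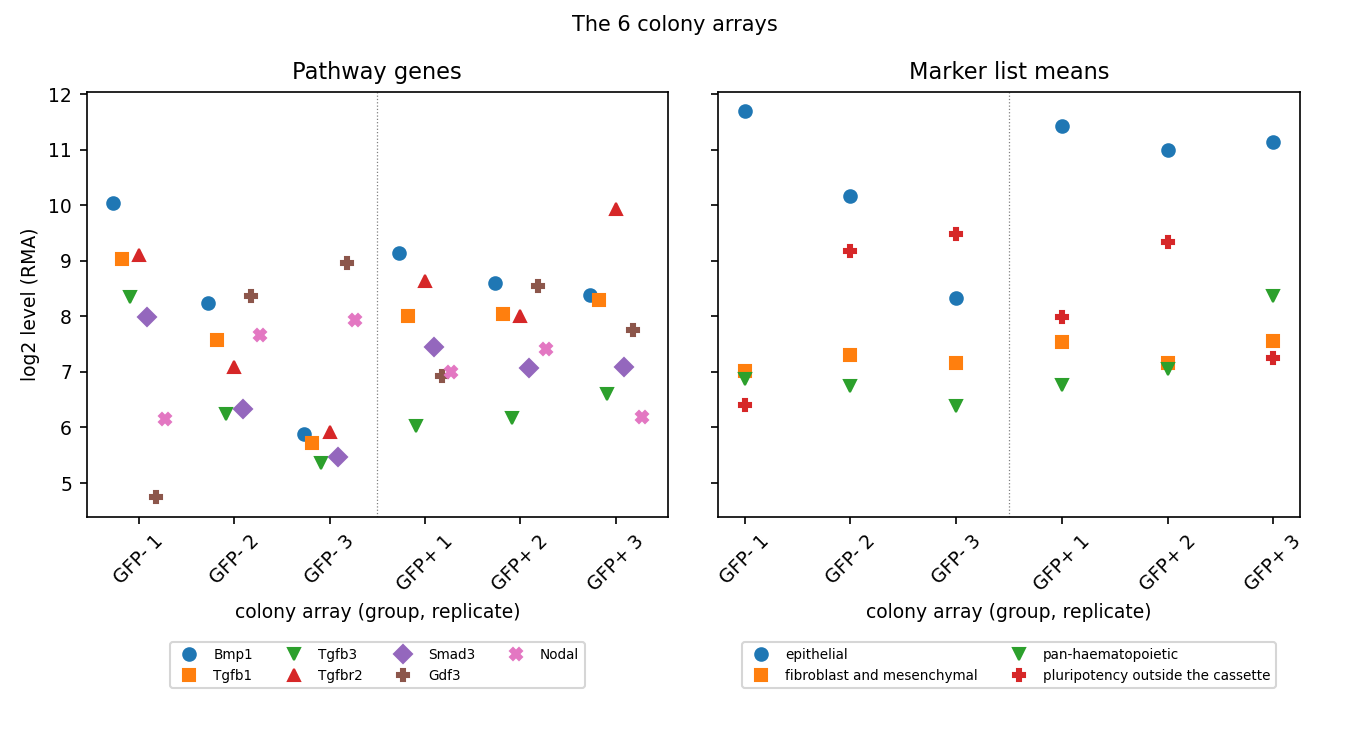
Log2 level on each of the 6 colony arrays (horizontal axis) of 7 pathway genes (left) and mean log2 level of 4 marker lists (right). Points are single arrays. GFP-negative replicate 1 combined the highest Bmp1 (10.04) and Tgfb3 (8.35) with the lowest Gdf3 (4.74), and GFP-negative replicate 3 had the lowest Tgfb1 (5.72).

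Other genes of the pathways were counted from 4 lists of modulators, latency and activation factors, intracellular regulators and targets, with 65 of 73 listed genes measured. In GFP-positive colonies 27 were higher and 4 lower than in leukemia, in GFP-negative colonies 18 higher and 3 lower, and in iPS cells 24 higher and 3 lower. The median differences were 0.56, 0.46 and 0.51. The shares of all genes called are those given with the receptors. Of 20 antagonists and extracellular modulators, 7, 6 and 9 were higher in these groups and 0 lower. Of 14 latency and activation genes, 8, 5 and 7 were higher and 1 lower in each. Of 17 intracellular regulators, 10, 5 and 5 were higher and 2, 2 and 1 lower. Of 14 targets, 2, 2 and 3 were higher and 1, 0 and 1 lower.

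The largest called differences on these lists were those of Tdgf1, Nrros, Thbs1, Cdkn1a and Dcn. Calls on these lists are from the fit of all 12 arrays and were not examined under the alternative settings. Tdgf1, the Nodal co-receptor, averaged 12.29 ± 0.06 in iPS cells, against 5.10 ± 0.29 in leukemia (SD, n = 3 each), a difference of 7.19 ± 0.53 (adjusted p = 4.88e-06, limma). It measured 10.67, 11.85 and 11.80 on the GFP-positive and 9.75, 11.82 and 12.03 on the GFP-negative arrays, above leukemia by 6.34 ± 0.53 (adjusted p = 1.33e-05) and 6.10 ± 0.53 (adjusted p = 1.76e-05). Nrros, which anchors latent TGF-beta on myeloid cells, differed by -3.05 ± 0.25 in GFP-positive colonies, by -3.55 ± 0.25 in GFP-negative colonies and by -3.47 ± 0.25 in iPS cells from leukemia. Thbs1, an activator of latent TGF-beta, was higher by 4.62 ± 0.82 in GFP-positive colonies, by 3.29 ± 0.82 in GFP-negative colonies and by 4.94 ± 0.82 in iPS cells. The cell cycle inhibitor gene Cdkn1a was higher by 3.67 ± 0.35 in GFP-positive and by 3.37 ± 0.35 in GFP-negative colonies than in leukemia. Dcn, the matrix proteoglycan decorin that binds TGF-beta, averaged 10.73 ± 0.08 in iPS cells, against 6.28 ± 1.29 over the GFP-positive, 5.61 ± 0.66 over the GFP-negative and 4.77 ± 0.20 over the leukemia arrays (SD, n = 3 each). Ltbp2, a relative of the latency proteins in elastic matrix, was higher in iPS cells by 2.25 ± 0.31 than in GFP-positive and by 2.73 ± 0.31 than in GFP-negative colonies. The fibroblast markers given beside Inhba moved with Dcn and Ltbp2, and their part was not tested. Of the 65 genes, 8 were higher and 2 lower in iPS cells than in GFP-positive colonies, 7 higher and 1 lower than in GFP-negative colonies, and 0 differed between the colony groups. Among all genes, 6.15% were higher and 4.23% lower in iPS cells than in GFP-positive colonies, 2.94% higher and 1.32% lower than in GFP-negative colonies, and 0% differed between the colony groups.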

How the data were processed

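RNA was measured in 12 samples on Affymetrix arrays. The authors deposited log2 values made with RMA, per the submitters' processing notes. Their software, its version and detection values are not given here. RMA includes quantile normalization, which hides a shift shared by most genes. Precision is limited by the 12 arrays. Of 41345 probe sets, 23521 had 1 gene symbol in the platform annotation and 1814 several. Each gene took its brightest probe set by mean, giving 22180 genes. Gdf5 alone of the 53 pathway genes had 2 probe sets. Probe sets with several symbols (1 of Bmpr2, 1 of Gdf1) were left out. Group means of all 4 groups were fitted jointly over all genes with limma 3.58.1 in R 4.3.3, and p-values were adjusted over all genes by the Benjamini-Hochberg method. The fit was tested on simulated data. Leaving out each array, a replicate block, array weights, cyclic loess, another prior, a filter, probe set means and fits of 2 groups were tried. Every pathway gene may be named; other genes are the 3 largest called of the pathway lists in a comparison. Of 73 listed pathway genes, 8 had no matching symbol. The genes, lists and tests were chosen with earlier results of these data known.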

Additional observations from a re-analysis of the deposited data

How the results depend on the processing

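Over 20 alternatives, 0 of the called differences of the 53 pathway genes turned their direction, and 27 of 49 stayed past the threshold in all of them. The remaining 22 missed it on leaving out 1 array or more. In the fits of 2 groups alone the threshold was missed by 8 of the 49, with array weights by 2, with cyclic loess by 3 and with the replicate block by 5. The number of genes called ran from 8 to 16 with 1 array left out for GFP-positive colonies against leukemia (13 with all arrays; 15.4% to 29.4% of all genes), 7 to 14 for GFP-negative colonies against leukemia (10; 14.7% to 27.2%), 11 to 20 for iPS cells against leukemia (17; 17.6% to 31%), 1 to 15 for iPS cells against GFP-positive colonies (6; 2.69% to 21.7%), 1 to 5 for iPS cells against GFP-negative colonies (3; 1.13% to 7.91%) and 0 to 5 for GFP-negative against GFP-positive colonies (0, and 0% to 4.59% of all genes). With array weights these counts were 20 for GFP-negative colonies and 33 for iPS cells against leukemia, and 17 and 5 for iPS cells against GFP-positive and GFP-negative colonies, where 32.1%, 46.7%, 25.4% and 11.2% of all genes were called. Fits of 2 groups alone gave 33 for iPS cells against leukemia, where 47.5% of all genes were called, and 10 for iPS cells against GFP-positive colonies, where 12.7% were. Leaving out GFP-positive replicate 3 together with GFP-negative replicate 1 gave 16 for GFP-negative colonies against leukemia, 17 and 8 for iPS cells against GFP-positive and GFP-negative colonies, and 5 between the colony groups, where 32.9%, 20.4%, 10% and 4.73% of all genes were. With the replicate block, 12 genes were called for GFP-positive and 11 for GFP-negative colonies against leukemia and 16 for iPS cells against leukemia, where 20.8%, 19.8% and 23% of all genes were. The block lost the calls of Smad5 in GFP-positive colonies (adjusted p = 0.0643, limma) and iPS cells (0.0636), Acvr2b in GFP-positive colonies (0.0524) and Inhbb in iPS cells (0.0511), each against leukemia, and of Gdf2 between iPS cells and GFP-positive colonies (0.0621). It gained Smad3 for iPS cells against leukemia (0.0467), Bmp8b for both colony groups against leukemia (0.0427 and 0.041) and Bmp4 for iPS cells against GFP-negative colonies (0.0381). Arrays of the same number did not deviate together, with correlations of deviations from -0.38 to 0.32, so the number was not taken as a pairing. The largest count from leaving out 1 array, for iPS cells against GFP-positive colonies (15) and between the colony groups (5), came without GFP-negative replicate 1. No detection values were used, and 9 of the 53 genes lay below the array median on all arrays.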
